A study of Mus musculus with 4 samples.

Results

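The 8 genes described here are the mouse MHC class II genes H2-Aa, H2-Ab1 and H2-Eb1, the accessory genes H2-DMa, H2-DMb1, H2-DMb2 and Cd74, and Ciita, which controls them. They were taken by symbol from the transcript tables and joined by Ensembl gene ID to the gene tables, and all 8 were found among 55536 annotated gene rows. All 8 also passed the filter of at least 10 expected counts summed over the libraries, as did 16262 genes in all. The libraries were made from ribosomal-RNA-depleted total RNA of the cytosol of bone-marrow-derived macrophages from C57BL/6J mice. The macrophages had been exposed to 100 ng/ml lipid A for 12 h, kept without it for 12 h after a wash, and exposed to 100 ng/ml lipid A again for 15 min. Lipid A, the membrane anchor of bacterial lipopolysaccharide, is the ligand of Toll-like receptor TLR4. There was 1 group of 4 biological replicates and no untreated group among the samples used here, so every value is a level in restimulated macrophages and none is a response to lipid A. The labels name 1 donor record for all 4 replicates and give no sex or age, and p-values therefore measure only the spread between these libraries, which may be technical. Expected counts summed to between 30660511 in replicate 1 and 48223718 in replicate 3.

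MHC class II molecules are pairs of an alpha and a beta chain that carry peptides from the endosomal pathway to the cell surface, where CD4 T cells read them. In the endoplasmic reticulum the pair is held by the invariant chain, which Cd74 encodes, and in endosomes cathepsins trim the invariant chain to a short fragment that H2-DM exchanges for a peptide. The class II transactivator, encoded by Ciita, does not bind DNA itself but assembles on the RFX, NF-Y and CREB factors that sit on the X and Y boxes upstream of class II genes. In macrophages Ciita is best known as a gene switched on by interferon-gamma.

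The X and Y boxes are the shared regulatory letters of the family. Stretches that hold the Y box letters are shown for 3 class II genes whose promoters are in the RefSeq table of GRCm38.p6 (mm10). That table held promoters of 5 of the 8 genes, each of 250 bases before and 50 bases after a start, and H2-Ab1, Cd74 and Ciita were not among them. Capitals mark the Y box letters GATTGG in all 3 sequences, the X box letters AACNGATGATGCT in H2-Eb1 and H2-DMb2, and the cyclic-AMP response element TGACGTCA in H2-Aa. The X box letters are the longest stretch that the promoters of H2-Eb1, H2-DMb1 and H2-DMb2 share with at most 1 variable base. Only a short window directly upstream of the Y box letters was searched for such a stretch. The presence of the X box letters in these 3 promoters, and their closeness to the Y box letters, is therefore no finding. The stretches are chr17:34287847-34287932 on the minus strand for H2-Aa, chr17:34305747-34305832 on the plus strand for H2-Eb1 and chr17:34145098-34145183 on the plus strand for H2-DMb2, all read 5′ to 3′.
H2-Aa: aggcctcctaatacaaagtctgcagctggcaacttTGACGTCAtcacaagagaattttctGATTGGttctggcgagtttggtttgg
H2-Eb1: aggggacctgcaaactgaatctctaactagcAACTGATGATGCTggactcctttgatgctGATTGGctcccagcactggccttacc
H2-DMb2: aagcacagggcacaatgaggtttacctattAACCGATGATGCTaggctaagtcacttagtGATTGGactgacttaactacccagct
The first base of the X box letters lay 29 bases before that of the Y box letters in H2-Eb1 and 30 bases before it in H2-DMb2, and also 30 bases before it in H2-DMb1. The H2-DMb1 copy is not printed, since the GENCODE annotation places it in the first exon of the main H2-DMb1 transcript. The printed H2-DMb2 stretch precedes the annotated start of H2-DMb2-201, but it lies in the first intron of H2-DMb2-203, the leading transcript, 1791 bases downstream of that transcript's start. In H2-Aa the response element began 25 bases before the Y box letters.

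Both strands of all 32851 tabulated promoters were searched for the same letters. GATTGG was found in 16.1% of them, TGACGTCA in 1.79% and AACNGATGATGCT in 0.0152%, which is 5 promoters. The X and Y box letters stood together in 3 promoters, those of H2-Eb1, H2-DMb1 and H2-DMb2, from which the X box letters had been taken. H2-Eb1 also held the Y box letters on the opposite strand, 35 bases before its start, and no searched motif overlapped another in these promoters. H2-DMa had 2 tabulated promoters, and the only match in them was a GATTGG in 1 promoter, 199 bases before its start. These are matches of letters and not measured binding.

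Cd74, the invariant chain gene on chromosome 18 (chr18:60803848-60812652, plus strand), was the most abundant of the 8 genes. It was read at 200, 156, 246 and 256 TPM (a level corrected for transcript length, relative to all other RNA in the library) in replicates 1 to 4, or 214 ± 45.7 TPM (SD, n = 4). The 4 libraries lay within 1.63 times of each other, with replicate 2 lowest and replicates 3 and 4 highest. Cd74 ranked 179th by mean TPM among 12636 protein-coding genes tested, within the top 1.42%. It made up 53.2% ± 1.72 (SD, n = 4) of the summed TPM of the 8 genes, and the 8 genes together made up 0.13% ± 0.0151 of all protein-coding TPM.

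The chains of the classical class II molecule I-A came next. H2-Aa, the alpha chain gene (chr17:34282744-34287823, minus strand), was read at 56.5, 47.8, 66.5 and 73.8 TPM. H2-Ab1, the beta chain gene (chr17:34257689-34269419, plus strand), was read at 37.4, 33.5, 52.2 and 56.1 TPM, or 44.8 ± 11 TPM (SD, n = 4). The alpha chain gene lay above the beta chain gene in 4 of 4 libraries, by 1.27 to 1.51 times. Cd74 lay above H2-Aa by 3.27 to 3.70 times.

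H2-Eb1 encodes the beta chain of the other class II molecule, I-E (chr17:34305867-34316674, plus strand). It was read at 36.4, 32.7, 42.7 and 49.6 TPM, or 40.4 ± 7.41 TPM (SD, n = 4), in every library just below H2-Ab1, at a ratio of H2-Ab1 to H2-Eb1 between 1.02 and 1.22. The partner alpha chain of I-E had no counts: H2-Ea-ps, as the annotation calls the H2-Ea locus of this strain, was at 0 expected counts in all 4 libraries. A count of 0 allows up to 3 counts, or between 0.0598 and 0.0931 TPM per library, counting error only. C57BL/6 mice carry a class II haplotype in which the promoter of H2-Ea is deleted, and no I-E reaches the surface of their cells.

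H2-DM, the peptide exchanger of endosomes, is a pair of an H2-DMa and an H2-DMb chain. H2-DMb1 (chr17:34153072-34160230, plus strand) was read at 20, 17.5, 21.1 and 28 TPM, or 21.7 ± 4.48 TPM (SD, n = 4). H2-DMa (chr17:34119541-34139101, plus strand) was read at 15.5, 15, 17.6 and 23.3 TPM, or 17.9 ± 3.79 TPM (SD, n = 4). In each library H2-DMa lay at 0.752 to 0.838 times the sum of both beta chain genes. The second beta chain gene, H2-DMb2 (chr17:34143307-34151555, plus strand), was read at only 0.63, 0.39, 0.4 and 0.71 TPM, so that H2-DMb1 exceeded it by 31.8 to 52.9 times.

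The beta chain genes of H2-DM are close copies over part of their sequence, and some of their reads cannot be assigned to either. The annotated coding part is 393 bases in H2-DMb2-203 and 786 bases in H2-DMb1-201, so only part of the longer one could be aligned. Of the 393 aligned bases 387 were identical, or 98.5%, with an identical run of 218 bases. Of all 50-base windows of the H2-DMb2-203 transcript, 25.6% also occurred in H2-DMb1-201. The expected counts of both genes were fractional, 38.25, 32.98, 38.18 and 49.89 for H2-DMb2, and yet those of H2-DMb1 and H2-DMb2 added to whole numbers in each library, 1241, 1495, 2007 and 1997, within 0.005 of a count. The posterior standard deviation that the authors' tables give for H2-DMb2 was 0.96 to 1.47 counts. That deviation is small beside the counts, but the division of the shared reads rests on the authors' estimate. The counts of H2-DMb2 are also few, at most 49.89 in a library, and its level is therefore reported as uncertain.

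Ciita (chr16:10480059-10528418, plus strand) was read at 0.55, 1.42, 1.44 and 2.11 TPM in replicates 1 to 4, or 1.38 ± 0.64 TPM (SD, n = 4). Replicate 1 was the lowest library. The reads behind these levels were 156, 474, 571 and 651 expected counts, so that even the lowest library held 156 counts. The highest library exceeded the lowest by 3.84 times, whereas among the other 7 genes this ratio was 1.52 to 1.82. Of 1034 protein-coding genes with a mean between 1 and 2 TPM, a range chosen after the Ciita values were seen, 2.61% varied by as much or more, and the median ratio was 1.52. By the biological coefficient of variation of edgeR, 12.3% of the same genes varied as much as Ciita or more. H2-Aa exceeded Ciita in every library, with Ciita at 0.00973 of the H2-Aa level in replicate 1 and at 0.0217 to 0.0297 of it in the others.

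**Figure D1:**
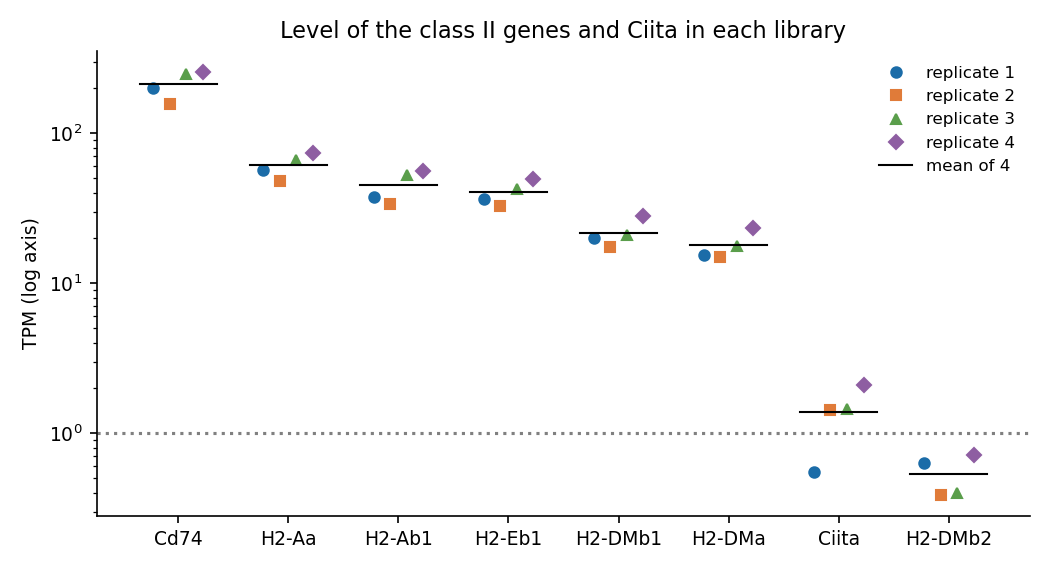
TPM (log axis) of the 8 genes in each of the 4 libraries, ordered by mean, with a bar at the mean and a dotted line at 1 TPM. Cd74 lies at 156 to 256 TPM, the 5 class II genes below it at 15 to 73.8 TPM, and Ciita and H2-DMb2 at 0.39 to 2.11 TPM, with Ciita lowest in replicate 1.

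Each gene was tested against a level of 1 TPM, which serves only as a fixed mark, with limma on log2(TPM + 0.1) over all 16262 genes and Benjamini-Hochberg adjustment. Of the 8 genes, 6 were called above 1 TPM, with adjusted p between 1.48e-10 for Cd74 and 9.5e-10 for H2-DMa, and in each of the 6 all 4 libraries lay above it. The background was high: 58.2% of all genes tested and 71.2% of protein-coding genes tested were called above, and 67.8% of all genes tested on values rescaled to protein-coding genes. The median TPM of the 8 genes was 31 ± 5.88 (SD over 4 libraries), beside 4.82 ± 0.574 for protein-coding genes tested and 2.69 ± 0.289 for all genes tested. H2-DMb2 was called below 1 TPM (adjusted p = 0.00252), as were 35.1% of all genes tested and 22.4% of protein-coding genes tested, and it lay above 1 TPM, at a mean of 1.70, when TPM was set to a fixed total over protein-coding genes. Ciita received no call (limma, adjusted p = 0.233 for above) with 3 of 4 libraries above the mark, and it was called above without replicate 1, at a mean of 1.66 TPM (limma, adjusted p = 0.00428), or on the rescaled values, at a mean of 4.48. In the second quantification as deposited it was called below, at a mean of 0.536 TPM (limma, adjusted p = 0.0112). The scale matters because RNA of other classes takes up much of each library's TPM: rescaling to protein-coding genes multiplied the values by 2.73 to 3.95, according to the library.

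Levels were compared within libraries over 10 pairs, 7 of them neighbours in the order of levels. In 9 of the 10 pairs all 4 libraries had the same order, but 4 libraries allow no two-sided exact sign-flip p below 0.125, which gave an adjusted p of 0.139 for each of those 9. The mean log2 difference was 1.80 ± 0.07 (SD, n = 4) for Cd74 against H2-Aa, 0.46 ± 0.11 for H2-Aa against H2-Ab1, 0.90 ± 0.08 for H2-Eb1 against H2-DMb1 and 0.28 ± 0.06 for H2-DMb1 against H2-DMa. H2-Ab1 and H2-Eb1 lay closest, at 0.13 ± 0.12, and at -0.02 in the authors' second quantification of the same libraries, so their order is not settled. Ciita and H2-DMb2 could not be ordered: their difference was 1.13 ± 0.87 with 3 of 4 libraries in 1 direction (exact sign-flip p = 0.25).

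The spread between replicates was also measured on expected counts, as the biological coefficient of variation (BCV) of edgeR. It was between 0.123 and 0.159 for the 6 genes above 1 TPM, 0.377 for H2-DMb2 and 0.326 for Ciita, and its median over the 8 genes was 0.147, beside 0.143 for the 4381 genes of at least 10 TPM and 0.206 for all genes tested. The 1034 protein-coding genes of 1 to 2 TPM had a median BCV of 0.213. Without replicate 1 the BCV of Ciita was 0.149. On the log2 scale of TMM-scaled CPM (counts scaled by library size), replicate 1 of Ciita deviated from the mean of the libraries by -1.03, and replicates 2, 3 and 4 by 0.26, 0.19 and 0.58. The class II genes other than H2-DMb2, and Cd74, deviated by no more than 0.25 in either direction. For H2-Aa, H2-Ab1, H2-Eb1, H2-DMa and Cd74, replicates 1 and 2 lay below the gene's mean and replicates 3 and 4 above it.

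**Figure D2:**
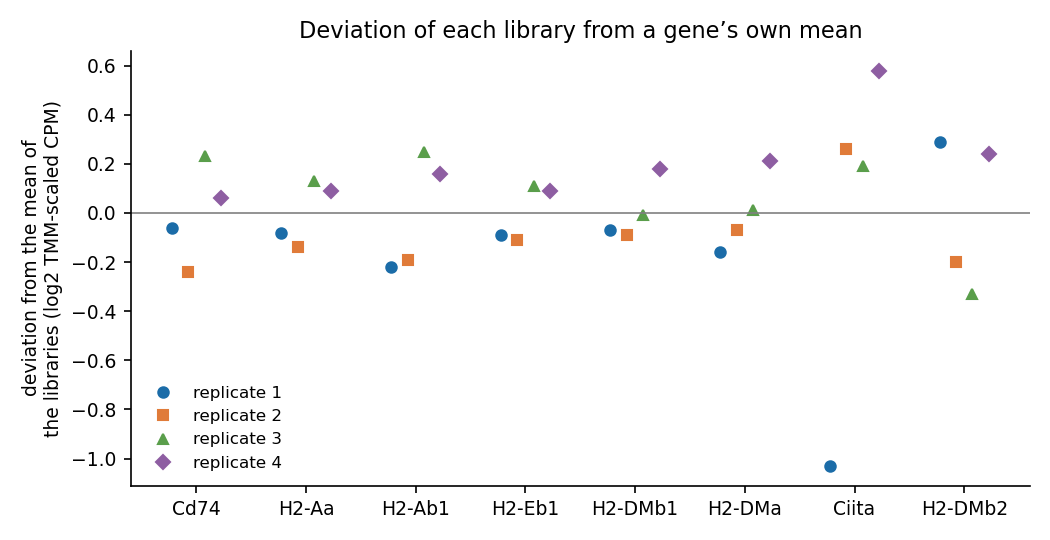
Deviation of each library from the gene's mean over the 4 libraries (log2 TMM-scaled CPM) for the 8 genes. Ciita in replicate 1 lies at -1.03, while the points of Cd74, H2-Aa, H2-Ab1, H2-Eb1, H2-DMb1 and H2-DMa lie between -0.24 and 0.25.

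The genes whose deviations were most like the median deviation of the 8 genes, among 4375 other genes of at least 10 TPM, were Iqsec2, Aoah, Itm2c, Tgs1 and Jak1. Likeness was the root mean square distance over the 4 libraries, 0.025 to 0.027 on the log2 scale for these 5 and 0.183 for the median gene. Their mean levels were 17.8 TPM for Iqsec2, 116 TPM for Aoah, 61.1 TPM for Itm2c, 19.1 TPM for Tgs1 and 36.1 TPM for Jak1. The 8 genes themselves set that median, so small distances among them are partly built in. The distance was 0.041 for H2-Eb1, 0.042 for H2-Aa, 0.068 for H2-DMb1, 0.076 for H2-DMa, 0.096 for Cd74 and 0.099 for H2-Ab1. It was 0.296 for H2-DMb2 and 0.552 for Ciita, with 3775 and 4257 of the 4375 genes closer to that median. H2-DMb2 and Ciita lie under 10 TPM, the minimum level of the 4375 genes. With 4 libraries this likeness is a description only.

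The transcript tables split each gene over its annotated transcripts, and H2-Eb1 was split most. Transcript H2-Eb1-205, which the annotation marks for nonsense-mediated decay (the pathway that removes messages with an early stop codon), held 57%, 54.5%, 50.9% and 48.4% of the gene's TPM in replicates 1 to 4, or 52.7% ± 3.79 (SD, n = 4). H2-Eb1-204, which is annotated as a retained intron and ends after 3 exons, held 26.5% ± 1.91. The annotated protein-coding transcripts of H2-Eb1 together held 19.3%, 16.3%, 19.9% and 18.5%, or 18.5% ± 1.54. In all 4 libraries the decay transcript was therefore the leading one, and the coding transcripts came last of these 3.

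The decay transcript differs from the coding one at the start of exon 2, among other places. The spliced sequences are shown there because the reading frame changes at that point. Both run 5′ to 3′ on the plus strand, with the last 20 bases of exon 1 followed by exon 2, and capitals mark the 53 bases at chr17:34309591-34309643 that H2-Eb1-205 leaves out.
H2-Eb1-203: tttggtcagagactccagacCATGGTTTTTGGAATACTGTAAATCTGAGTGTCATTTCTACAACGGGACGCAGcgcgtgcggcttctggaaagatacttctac
H2-Eb1-205: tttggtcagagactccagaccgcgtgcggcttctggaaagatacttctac
The omitted stretch ends in AG, the letters that end introns. Its length leaves a remainder of 2 when divided by 3, so the reading frame shifts, and the annotated stop codon of H2-Eb1-205 follows at chr17:34309826-34309828, still in exon 2, with 4 exon junctions downstream. The coding transcript H2-Eb1-203 also starts earlier, at chr17:34305867 against chr17:34305926 for H2-Eb1-205, and reaches 475 bases farther at its 3′ end. Reads in those parts can be assigned to H2-Eb1-203 and not to H2-Eb1-205. The division between these transcripts need not rest on the printed stretch alone. The posterior standard deviation of the counts in the authors' tables was 40.1 to 63.6 for H2-Eb1-205, on 905 to 1470 expected counts.

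The transcripts of Cd74 divide into forms with and without an internal exon. Cd74-202 carries an exon of 192 bases (chr18:60811294-60811485) that Cd74-201 lacks, and this exon gives the long form of the invariant chain, with a thyroglobulin-type domain known to bind cathepsins. Cd74-202 held 24.1%, 21.6%, 26.6% and 19.5% of Cd74 TPM, or 23% ± 3.07 (SD, n = 4), and Cd74-201 held 77% ± 3.08. The short form was the larger in every library.

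Ciita has 8 annotated transcripts in 3 groups of starts along chromosome 16. The first group begins at 10480059 to 10480164, the second at 10488178 and 10488279, and the third at 10489746 to 10489783. The second group held 83.9%, 69.2%, 77.1% and 84.8% of Ciita TPM, or 78.8% ± 7.22 (SD, n = 4), the third 12.8% ± 8.34 and the first 8.48% ± 1.63. Most of the second group was Ciita-201, whose 3′ end runs 1992 bases beyond that of every other Ciita transcript, so its share also counts reads from that end and is not a measure of the start alone. In replicate 1, the library with 156 Ciita counts, the second group also led.

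The other genes were each carried mainly by 1 transcript. H2-Aa-201 held 99% ± 1.15 of its gene, H2-Ab1-201 held 95.9% ± 1.31 and H2-DMb1-201 held 99.8% ± 0.183 (SD, n = 4 each). H2-DMa-205 held 92.3% ± 1.36, and it begins at chr17:34135628, 12796 bases downstream of the start of H2-DMa-201 and also downstream of both tabulated H2-DMa promoters. H2-DMb2-203 held 100% of its gene in replicates 1 and 4 and 76.9% and 62.5% in replicates 2 and 3, over only 23 to 49.9 expected counts.

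**Figure D3:**
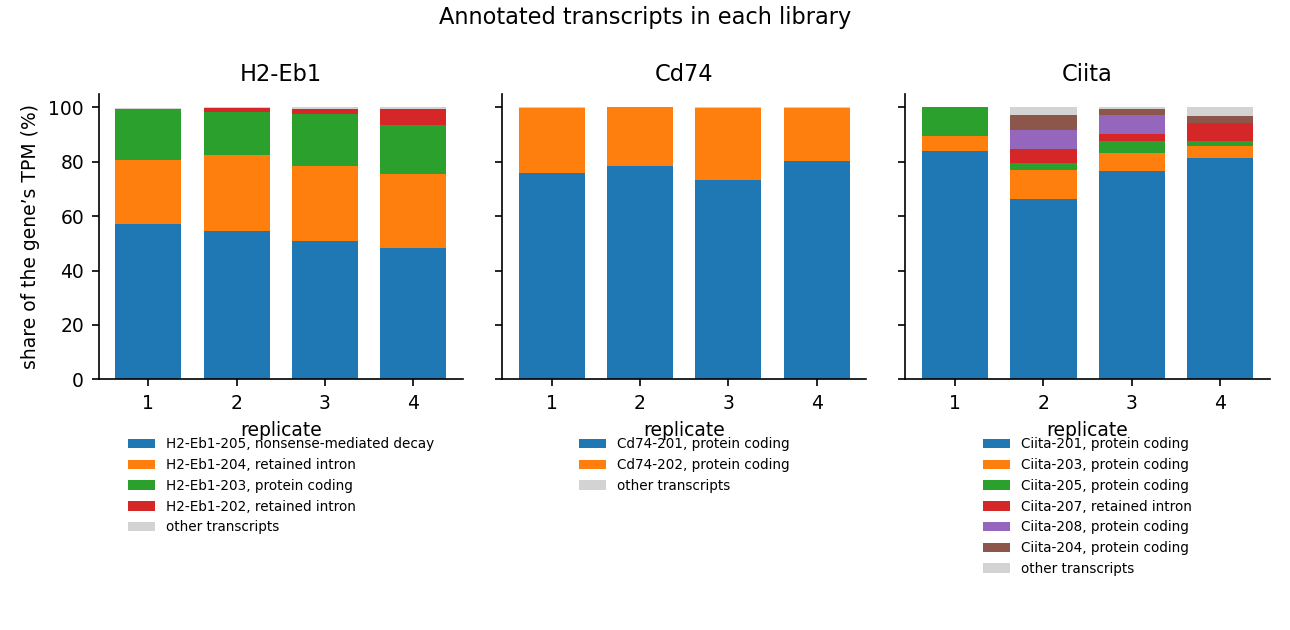
Share of a gene's TPM (%) held by each annotated transcript in the 4 libraries, for H2-Eb1, Cd74 and Ciita, with transcripts of under 2% on average merged as other. The nonsense-mediated decay transcript of H2-Eb1 holds 48.4% to 57%, Cd74-202 holds 19.5% to 26.6% and Ciita-201 is the main Ciita transcript in every library.

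Each library was quantified by 2 methods by the authors, and the 8 genes were compared between them after both were rescaled to protein-coding genes. On that scale the second quantification gave 672 ± 96.9 and the first 691 ± 92.7 for Cd74 (SD, n = 4 each), 186 ± 18.5 and 198 ± 18.8 for H2-Aa, and 5 ± 2.2 and 4.48 ± 1.88 for Ciita. The log2 difference, second minus first, was -0.09 to 0.14 over the 8 genes, highest for Ciita (0.14) and lowest for H2-Aa (-0.09). None of the 8 was called different by limma treat at a log2 difference of 1, with 0 also at an unadjusted p under 0.05, beside 586 of 14108 genes tested, or 4.15%. Higher in the second were 3.3% of all genes tested, and lower 0.858%. Ciita was again lowest in replicate 1, at 1.8 in the second quantification against 5.34 to 6.65 in the other 3 libraries.

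Some transcript shares moved more than gene levels did. For H2-Eb1-205 the second quantification gave 55.1% ± 4.58 and the first 52.7% ± 3.79 (SD, n = 4 each), a difference within the spread. The annotated coding transcripts of H2-Eb1 held 8.85% ± 1.17 in the second quantification and 18.5% ± 1.54 in the first. The coding share of H2-Eb1 message therefore depends on the method. The second start group of Ciita held 62.7% ± 4.4 in the second quantification and 78.8% ± 7.22 in the first, and it led in both. For Cd74-202 the values were 25.8% ± 4.13 in the second quantification and 23% ± 3.07 in the first.

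**Figure D4:**
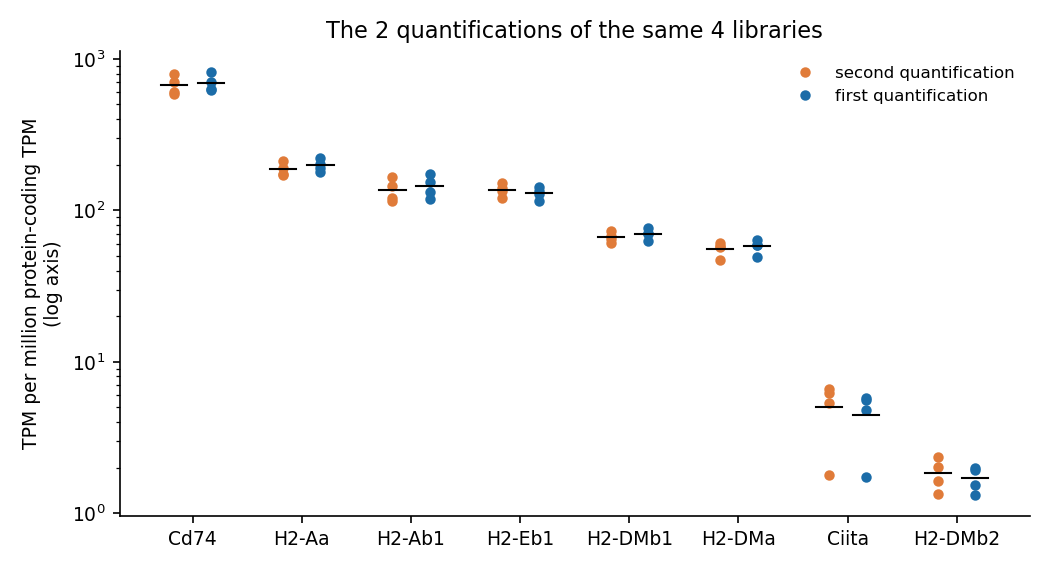
TPM rescaled to a fixed total over protein-coding genes (log axis) in the second and the first quantification of the same 4 libraries, with points for libraries and bars for means. The order of the genes is shared except for H2-Ab1 and H2-Eb1, which both average 137 in the second quantification, and the points of each gene overlap between the methods.

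Of the other genes of the class II region, none was called above 1 TPM. Of the 4 measured, 3 were called below, as were 22.4% of protein-coding genes tested. H2-Oa and H2-Ob encode H2-DO, an inhibitor of H2-DM that is known from B cells. H2-Oa was read at 0.32, 0.13, 0.31 and 0.35 TPM (limma, adjusted p = 4.64e-05 for below), and H2-Ob at 0.03 to 0.11 TPM. H2-Eb2, a further beta chain gene, was read at 0.02 to 0.04 TPM. Both genes of the inhibitor lay below H2-DMa and H2-DMb1 in every library, while H2-DMb2 itself was read at 0.39 to 0.71 TPM. The fourth is H2-Ea-ps, which was at 0 counts and not tested.

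The factors through which the class II transactivator acts were read in these libraries. All 7 genes of the promoter-binding factors were called above 1 TPM, as were 71.2% of protein-coding genes tested. Their median of 4.96 TPM lay near the 4.82 TPM of protein-coding genes tested. In the second quantification as deposited only 4 of the 7 were called above, beside 7324 of 21508 genes tested. Rfx5, Rfxank and Nfyb averaged 1.08 to 1.30 TPM there. Nfya, a subunit of NF-Y, was highest at 21.4 ± 3.62 TPM (SD, n = 4), with Nfyc, another subunit, at 7.27 ± 1.22 TPM and Creb1 at 6.14 ± 1.01 TPM. Each of the 7 genes had a higher mean than Ciita (1.38 TPM), and the lowest of them was Rfx5, a subunit of RFX, at 2.79 ± 0.296 TPM. Of 9 genes known to regulate Ciita, 8 were called above 1 TPM, beside the same 71.2% of protein-coding genes tested. In the second quantification as deposited 6 were called above. Spi1, the myeloid factor PU.1, was read at 115 ± 28.8 TPM, and Irf1, which binds the interferon-responsive Ciita promoter, at 62.3 ± 18.1 TPM (SD, n = 4 each). Irf4, best known from lymphoid cells, was the exception at 0.193 ± 0.0206 TPM (limma, adjusted p = 1.71e-06 for below).

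Among the endosomal genes that prepare peptides and trim the invariant chain were some of the most abundant listed here, while Ifi30, a thiol reductase of endosomes named after its value was seen, lay below H2-Eb1 at 21.7 ± 2.85 TPM (SD, n = 4). All 8 were called above 1 TPM, at a median of 444 ± 98.2 TPM (SD over 4 libraries), and the most abundant were the cathepsin genes Ctsd at 2827 ± 405, Ctsb at 2133 ± 556 and Ctss at 1330 ± 286 TPM. Cathepsin S, the product of Ctss, makes the last cut of the invariant chain in many antigen-presenting cells. All 5 genes of class II turnover and of the Cd74 ligand pathway were called above. Mif, whose product binds the Cd74 protein at the cell surface, was read at 87.2 ± 12.5 TPM, March1, the ubiquitin ligase that removes class II from the surface, at 41.3 ± 7.7 TPM, and Cd44, the signalling partner of Cd74, at 35.5 ± 6.61 TPM (SD, n = 4 each). In all, 28 of the 32 tested genes of these lists were called above 1 TPM, beside 71.2% of protein-coding genes tested. Over all genes tested the share was 58.2%. In the second quantification as deposited 23 of the 32 list genes were called above, beside 7324 of 21508 genes tested.

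Markers of other antigen-presenting cells were set beside these levels, since in bulk RNA fewer cells of a type and less RNA per cell cannot be told apart. All 12 macrophage markers were called above 1 TPM, as were 71.2% of protein-coding genes tested. Lyz2 was highest at 3430 ± 684 TPM, with C1qb at 997 ± 149 TPM and C1qc at 781 ± 127 TPM. The macrophage list summed to 5639 to 8423 TPM per library. Of 10 dendritic cell markers, 9 passed the count filter and were tested, and 2 were called above. The 2 were Clec10a at 2.54 ± 0.673 and Batf3 at 2.05 ± 0.591 TPM. Ccr7 was next at 0.938 ± 0.422 TPM, and the list summed to 4.59 to 7.49 TPM. Flt3, a defining receptor of dendritic cells, was at 0.02 to 0.05 TPM, and Zbtb46, their defining transcription factor, at 0.06 to 0.09 TPM. The sum of the dendritic cell list was below the level of H2-DMa, H2-DMb1, H2-Eb1, H2-Ab1, H2-Aa and Cd74 in every library. This sets different genes side by side, and whether such cells contributed to the class II levels was not tested.

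Of 10 B cell markers, only 3 passed the count filter and were tested. Of these, 2 were called above 1 TPM, beside 71.2% of protein-coding genes tested. Nearly all of the list's sum of 5.41 to 13 TPM came from Cd22 and Cd79b. Cd22 was at 6.99 ± 3.11 and Cd79b at 1.36 ± 0.334 TPM (SD, n = 4 each). Cd79b was just inside the threshold (limma, adjusted p = 0.0479). Ighm was next at 0.415 ± 0.115 TPM. Blk, a kinase of B cells, was at 0 in all 4 libraries, and such a count allows a level of up to 0.0304 to 0.0471 TPM. Of 8 T cell markers, 4 were tested and only Cd4 was called above, at 15 ± 4.4 TPM. Lck followed at 0.0875 ± 0.0591 and Cd5 at 0.07 ± 0.0374 TPM, and the list summed to 9.03 to 18.2 TPM. The Cd4 protein is the receptor partner of class II on helper T cells, and some macrophages also carry it. Cd4 was lowest in replicate 1, at 8.46 TPM, and at 18, 16.6 and 16.9 TPM in replicates 2, 3 and 4, and Ciita was lowest in that library too. Whether any of these cells contributed to the class II levels was not tested.

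**Figure D5:**
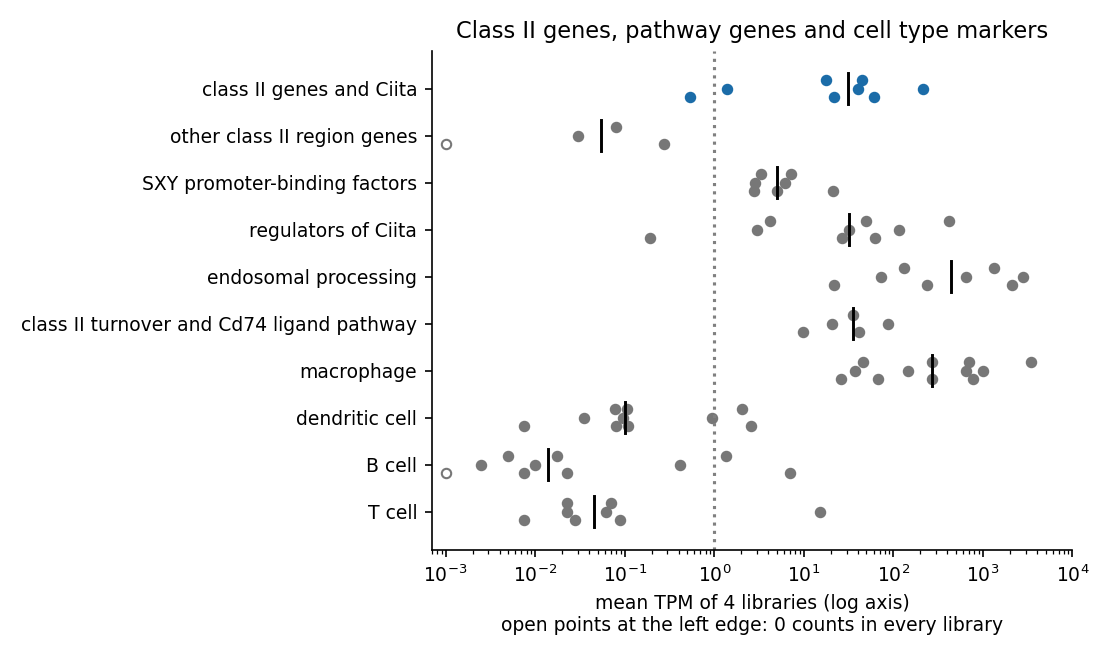
Mean TPM of 4 libraries (log axis) for the 8 genes, the pathway lists and the cell type markers, where each point is a gene, each bar the median of the points and open points are genes with 0 counts in every library. The endosomal processing list has a median of 444 TPM and the macrophage markers of 269 TPM, whereas most dendritic cell, B cell and T cell markers lie left of the dotted line at 1 TPM.

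Some of the 8 genes share their span with others, and whether the authors counted reads by strand is not given in the sources used here. H2-DMa overlaps Brd2, on the opposite strand, by 3094 bases. Brd2, a bromodomain gene, was read at 73.3 ± 17.8 TPM (SD, n = 4), above H2-DMa in every library. The overlap lies at the upstream end of H2-DMa, where the transcripts H2-DMa-206 and H2-DMa-208 begin, and these held 0% and 0.603% of the gene. The annotated span of Ciita, introns included, overlaps that of Dexi, on the opposite strand, by 25888 bases. Dexi was read at 2.46, 1.87, 2.62 and 2.37 TPM, beside 0.55 to 2.11 TPM for Ciita. The expected counts of Ciita were whole numbers, 156, 474, 571 and 651, with a posterior standard deviation of 0 in each library. Dexi was lowest in replicate 2 and Ciita in replicate 1, and whether reads of either gene entered the level of the other was not tested. The other overlapping genes, Gm20513 at H2-Eb1, CR974462.3, CR974462.4 and Gm20493 at H2-DMa, and Mir5107 at Cd74, had at most 8 expected counts in a library.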

How the data were processed

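The authors deposited, for each of 4 libraries, a gene table and a first transcript table with expected counts, TPM, posterior mean TPM and posterior standard deviations of the counts, and a second transcript table with estimated counts and TPM, per the file headers. Genome build mm10 and annotation M21 are given in the deposited notes, and no aligner or quantifier is named in those notes. Expected counts summed to 30660511 to 48223718 per library, and 3 counts, the most that a count of 0 allows, are 0.0622 to 0.0978 CPM. The 26345 rows of no annotated gene were left out, and 86 annotated genes had no row in the second quantification.

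Levels were tested with limma 3.58.1 (variance trend, log2(TPM + 0.1), genes of at least 10 summed expected counts, one-sided against 1 TPM in each direction), and quantifications with limma treat for genes of at least 1 rescaled TPM. The second quantification was summed over the transcripts of a gene. Spread came from edgeR 4.0.16 (TMM, estimateDisp) on expected counts rounded to whole numbers, with DESeq2 1.42.0 as the alternative. The threshold was an adjusted p of 0.05 (Benjamini-Hochberg over every gene in a fit). The fits were tested on simulated data. Sequences are from RefSeq promoters and GENCODE transcripts, aligned with Biopython 1.88. R 4.3.3 and Python 3.11.15 were used with pandas 2.3.3, numpy 2.4.6 and matplotlib 3.10.9.

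The 8 genes, the pathway and marker lists and the tests were chosen with earlier results of these data known. Named are the 8 genes, the other class II region genes, the 3 highest of each other list, pathway genes not called above 1 TPM, markers at 0 in every library, the 5 genes most like the 8, and genes that overlap them. Rfx5, Rfxank, Nfyb, Prdm1, Socs1, Ifi30, Flt3 and Zbtb46 fall outside this rule and were named after their values were seen. A gene that the rule names is not reported here. H2-Ea as a symbol was not matched and is represented by H2-Ea-ps.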

Additional observations from a re-analysis of the deposited data

Results flagged for a closer look

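Of 60 quantities named in the text, 5 had a library whose gap to the nearest other library exceeded Dixon's 95% critical value as a share of the whole range for 4 samples. Chance gives about 1 such case in 20. Of the 5, 3 concern replicate 1. The difference of Ciita from H2-DMb2 was -0.17 on the log2 scale in replicate 1 and 1.63, 1.62 and 1.45 in replicates 2, 3 and 4. The difference of H2-DMa from Ciita was 4.59 in replicate 1 and 3.31, 3.53 and 3.40 in the others. These share the same Ciita values, while the TPM of Ciita itself was examined and not flagged. Cd4 stood at 8.46 TPM in replicate 1 and at 18, 16.6 and 16.9 TPM in the others.

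The other 2 concern replicate 4. Creb1 was at 7.64 TPM there and at 5.81, 5.5 and 5.61 TPM in replicates 1, 2 and 3. Mif was at 106 TPM there and at 79.2, 80.5 and 83.4 TPM in the others. The causes were not tested.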

How the results depend on the processing

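No paired analysis was possible because all 4 libraries belong to 1 group. The 6 genes called above 1 TPM kept that call under every alternative run. With TPM rescaled to protein-coding genes, or the second quantification so rescaled, 0 of the 8 genes were called below 1 TPM, H2-DMb2 reversed to means of 1.70 and 1.85, and Ciita was called above, at means of 4.48 and 5. With the second quantification as deposited 2 were called below, since Ciita reversed to a mean of 0.536 TPM, and 0 dendritic cell markers and 1 B cell marker were called above, with 23 of the 28 pathway genes (without Rfx5, Rfxank, Nfyb, Prdm1 and Socs1). Without filter 1 B cell marker was called above, and leaving out a replicate gave 1 to 2. All genes called below 1 TPM numbered 5712, against 12003 without filter, 2800 at 40 summed counts, 3453 when rescaled and 12231 in the second quantification. Genes differing between quantifications numbered 586, against 244 with a pseudocount of 1 and 258 to 588 without a replicate (362, 258 and 277 without replicates 2, 3 and 4), with 0 of the 8 genes among them in each. H2-DMb2 could not be compared as deposited, being under 1 TPM in both. As deposited, the median of all genes shifted by -1.40 (log2), against 0.05 when rescaled. H2-Ab1 against H2-Eb1 reversed to -0.02 in the second quantification. The median BCV of all genes was 0.445 without filter and 0.44 in the second quantification, against 0.206.

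Shares moved beyond 1 SD in some cases. From posterior mean TPM they were 94.6% for H2-Ab1-201, 97.2% for H2-DMb1-201, 90% for H2-DMa-205 and 11% for the first Ciita start group. From the second quantification they were 98.3% for H2-Ab1-201, 99.3% for H2-DMb1-201, 88.6% for H2-DMa-205, 31% for H2-Eb1-204, 8.85% for coding H2-Eb1, and 12.5%, 62.7% and 24.8% for the Ciita start groups in genome order. The causes were not tested. Depth limits H2-DMb2, with 32.98 to 49.89 counts, most.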
